A study of Mus musculus with 26 samples.

Results

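The genes described here are the 340 genes of mouse chromosome 6 whose first annotated start in the count table lies at or beyond 60 Mb and whose mean raw count over 6 untreated libraries was at least 50. They are 340 of the 25239 genes in that table, and of the 857 genes that the table places in the same stretch at any count. The first of them, Smarcad1, starts at 65.0 Mb and the last at 149.4 Mb, and Hmces, the gene knocked out in the study, lies among them. The stretch was chosen because its genes were lower as a group in the knockout libraries of the count table. Values and edgeR calls from those libraries therefore restate that choice and are given as a description. Support is taken from the TPM tables, whose libraries the choice did not use. By their titles the treated libraries are of the same pair of knockout lines as the count table. They thus measure those lines again and give no support from further lines.

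The study compared wild-type (WT) mouse embryonic stem cells with HMCES-KO cells, labelled as C57BL/6 and grown in serum on gelatin, by RNA sequencing of 26 samples. The count table holds 2 WT libraries and 2 libraries of each of the knockout lines that its column names call KO7 and KO8, all untreated. A separate table of TPM (transcript levels scaled for gene length and library size) holds 2 untreated WT and 2 untreated HMCES-KO libraries. Each of 4 further TPM tables holds 2 WT libraries and 1 library of each of the lines called HMCES-KO1 and HMCES-KO2 after 2 h with 1 agent. The agents were activin A at 50 ng per ml, SB431542 (an inhibitor of activin and Nodal receptors) at 10 µM, BMP4 at 10 ng per ml and LDN193189 (an inhibitor of BMP receptors) at 50 nM. The labels title the knockout libraries of the count table HMCES-KO1 and HMCES-KO2 too, so KO7 and KO8 are named as the same pair of lines as KO1 and KO2 and not as further ones. Which of them is which is not given, so the names of each table are kept. The untreated TPM columns are described as CCE for WT and by names beginning K8 for HMCES-KO. Whether that WT is the parental culture of the other tables, and which line its knockout is, are not stated. The labels also do not say how the knockout was made or whether a line is 1 clone. Nothing in them ties the libraries of a group to separate cultures. The p-values here therefore measure library-to-library spread, part of which may be technical.

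HMCES binds abasic sites in single-stranded DNA, forming a DNA-protein crosslink that shields the site until it is repaired. Distal mouse chromosome 6 carries a cluster of germ-cell and stem-cell genes around Nanog, several DNA repair and glycolytic genes, and the Rosa26 locus. In bulk samples, fewer cells of a type and less RNA per cell cannot be told apart.

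The promoters of 4 members are printed because they stand for the patterns described below: Hmces is the targeted gene, Copg1 is its upstream neighbour and one of the members closest to the joint level, Atp6v1e1 is a distant member equally close to it, and Kdm3a was higher rather than lower in both lines of the count table. Each run holds the 250 bases before the annotated start, 5′ to 3′ on the strand of the gene, from RefSeq on GRCm38.p6. Capitals mark the GC box motif GGGCGG or its reverse complement CCGCCC.
Hmces, chr6:87913726-87913975, plus strand: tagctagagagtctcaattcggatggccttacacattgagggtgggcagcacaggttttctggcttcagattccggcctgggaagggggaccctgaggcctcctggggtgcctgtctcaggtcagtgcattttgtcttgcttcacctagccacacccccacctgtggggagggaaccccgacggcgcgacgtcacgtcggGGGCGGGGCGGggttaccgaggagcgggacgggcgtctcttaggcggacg
Copg1, chr6:87887690-87887939, plus strand: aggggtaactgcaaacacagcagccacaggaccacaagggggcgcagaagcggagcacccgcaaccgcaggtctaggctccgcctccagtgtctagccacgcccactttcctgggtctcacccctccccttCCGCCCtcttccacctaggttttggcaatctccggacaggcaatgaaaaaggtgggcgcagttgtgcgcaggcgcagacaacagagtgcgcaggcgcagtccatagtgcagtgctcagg
Atp6v1e1, chr6:120822699-120822948, minus strand: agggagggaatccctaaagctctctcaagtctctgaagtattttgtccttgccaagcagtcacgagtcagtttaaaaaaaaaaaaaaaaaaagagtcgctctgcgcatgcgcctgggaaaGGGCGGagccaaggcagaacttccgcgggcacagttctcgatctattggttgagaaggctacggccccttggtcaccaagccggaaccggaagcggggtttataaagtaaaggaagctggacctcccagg
Kdm3a, chr6:71632918-71633167, minus strand: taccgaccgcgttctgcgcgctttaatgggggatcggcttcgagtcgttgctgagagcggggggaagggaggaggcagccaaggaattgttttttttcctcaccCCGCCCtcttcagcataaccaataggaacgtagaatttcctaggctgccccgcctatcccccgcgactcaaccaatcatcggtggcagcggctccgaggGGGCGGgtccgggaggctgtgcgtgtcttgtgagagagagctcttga

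The RefSeq promoter table held 273 of the 340 members. A GC box on either strand stood in 60.4% of these promoters, against 62.9% of the 8618 promoters of genes with a mean count of at least 50 and 32.9% of all 27025 promoters. CCAAT on either strand stood in 33.3%, 37.5% and 34.5% of the same sets, TATAAA in 7.33%, 5.41% and 13% and the E-box CACGTG in 5.13%, 8.97% and 6.05%. The shares in members and in expressed genes were thus within a few points of each other, and a match is not a binding site.

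Total counts ran from 9571113 to 13512922 over the 6 libraries of the count table, and the untreated TPM values correspond to 8524110 to 10037099 whole reads. The depth behind the treated TPM values is unknown. All 340 members were in the untreated TPM table and 327 were in all 4 treated tables. The 13 others included the Rosa26 transcript Gt(ROSA)26Sor, the Vax2 antisense transcript Vax2os and the ribosomal protein gene copy Rps4l. Mean counts of the members ran from 50 to 22618, with a median of 544.4. Lhfpl4 at 50 and P3h3 at 50.3 were just inside the limit, and Tapbpl at 46.5 and 9330102E08Rik at 45.5 were just outside it.

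Hmces (chr6:87913976-87936613, plus strand) was lower in every knockout library. In the count table its level is given in CPM (counts scaled by the library total after adjustment by TMM normalization factors). It was 296.1 and 354.0 in WT, 125.4 and 126.9 in KO7, and 86.6 and 81.6 in KO8. In the untreated TPM table it was 754.9 and 750.2 in WT and 159.5 and 166.1 in HMCES-KO. No knockout library overlapped a WT library in either table, and transcripts from the locus were still counted in all of them. The untreated TPM difference was -2.20 ± 0.04 (log2 of TPM + 1, standard error, 2 libraries against 2), with an adjusted p of 2.2e-05 in limma.

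In the treated tables Hmces was at 341.2, 399.8, 332.8 and 325.4 TPM in KO1 with activin A, SB431542, BMP4 and LDN193189. In KO2 it was at 165.1, 184.1, 176.8 and 142.7 TPM in the same order. The 8 WT libraries ran from 507.3 to 663.4 TPM. The lines were thus ordered in every treatment, WT above KO1 above KO2, without overlap. Hmces fell by 0.74 ± 0.06 in KO1 and by 1.80 ± 0.06 in KO2 on the log2 scale (limma, adjusted p = 3.4e-07 and 1.9e-11), and the lines differed by -1.06 ± 0.07 (KO2 minus KO1, adjusted p = 3.5e-07). How the gene was altered is not given in the labels, so these levels do not show whether the remaining transcript is functional.

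**Figure D1:**
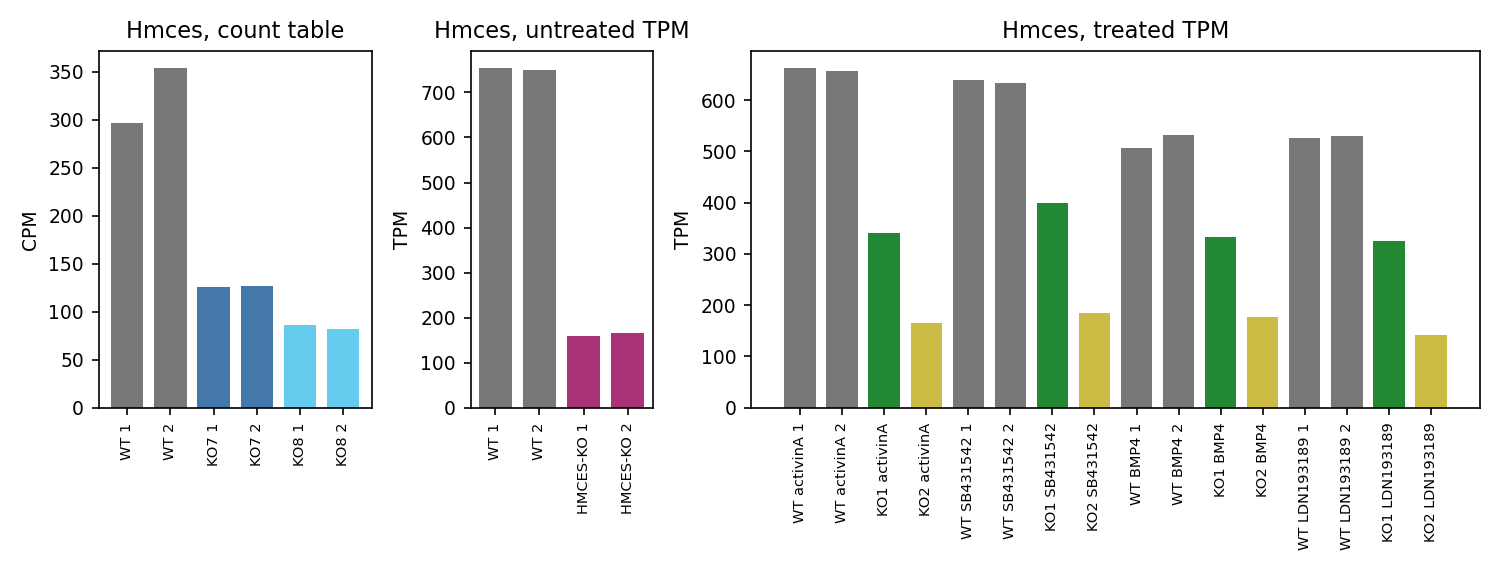
Level of Hmces in each library of the count table (left, CPM), the untreated TPM table (middle) and the treated TPM tables (right, TPM after rescaling over shared genes), 1 bar per library, coloured by line. Every knockout bar is below every WT bar of its panel, and in the treated tables KO1 (325.4 to 399.8 TPM) stands above KO2 (142.7 to 184.1 TPM).

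In the count table the members were lower in both lines. Line KO7 had a median log2 fold change of -0.36 over the 340 members (quartiles -0.58 and -0.19), which is 77.8% of the WT level, and 305 of 340 were below 0. Line KO8 had a median of -0.24 (quartiles -0.50 and -0.06), or 84.7% of WT, with 274 of 340 below 0. The 10242 genes of other chromosomes with the same count minimum had medians of 0.04 and 0.02. With edgeR and an adjusted p under 0.05, 234 members were called lower and 9 higher in KO7, where 19.2% of all genes tested were called lower and 19% higher (38.2% in either direction). In KO8, 177 were called lower and 24 higher, against 19.7% and 19.3% of all genes tested (38.9%). Between the lines, 103 members were called higher in KO8 than in KO7 and 30 lower, against 13.9% and 14.3% of all genes tested (28.2%). Without any one of the KO7 or KO8 libraries those counts were 46 to 61 and 14 to 17. The counts called higher than WT in KO7 and in KO8 moved by over 1.5 times when certain single libraries were left out. All of these counts come from the samples that chose the members and support nothing beyond that choice.

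The lower level was spread over many members. KO7 was below both WT libraries in both of its libraries for 272 members, and KO8 for 229, where 30.3% and 33.1% of all genes with a mean count of at least 50 were. A log2 difference beyond -1 was seen in 25 members in KO7 and in 16 in KO8. Without Hmces the medians were the same, -0.36 and -0.24. Members took 5.07% and 5.03% of all counts in the WT libraries, 3.92% and 3.91% in KO7 and 4.19% and 4.20% in KO8. Replicate libraries of a line lay within 0.02 of each other in their median over members: -0.34 and -0.36 for KO7, -0.24 and -0.22 for KO8.

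The size of the difference varied with expression. In KO7 the 114 members with the lowest counts had a median of -0.47, the 112 in the middle -0.39 and the 114 with the highest counts -0.27. In KO8 these were -0.38, -0.26 and -0.19. The interquartile width in KO7 narrowed from 0.58 in the lowest group to 0.29 in the highest. Grouped by the length given in the table, the 113 shortest members, the 113 in the middle and the 114 longest had medians of -0.37, -0.32 and -0.36 in KO7. In the treated tables the order was different. KO1 had -0.36, -0.40 and -0.36 over the groups by count, and over the groups by length the longest members were lowest, with -0.31, -0.34 and -0.48 in KO1 and -0.05, -0.06 and -0.23 in KO2.

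Along the chromosome the lines differed in where the lower level began. In KO7 the best single step over the 491 chromosome 6 genes with a mean count of at least 50 fell between Snx10, starting at 51.5 Mb, and Skap2, starting at 51.9 Mb. The 127 genes before it had a median of 0.04 and the 364 after it -0.36. Snx10, a sorting nexin, was at 97.8 and 77.5 CPM in WT and at 153 and 147 in KO7. Hibadh at 52.5 Mb, an enzyme of valine breakdown, was at 124 and 105 in WT and at 78.4 and 77.7 in KO7. The border in KO7 thus lay before the 60 Mb limit of the rule, and some genes just below that limit were low as well: Tigd2 at 59.2 Mb was at 20.5 and 20.6 CPM in WT and 8.73 and 7.92 in KO7, and Herc3 at 58.8 Mb was at 20.2 and 15.0 in WT and 7.37 and 8.13 in KO7. Of the other 3 genes nearest below 60 Mb, Pyurf was at -0.78, Lancl2 at -0.24 and Abcg2 at -0.15 on the log2 scale in KO7.

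KO8 had no such border. Its best step reduced the summed absolute deviation by 0.474%, against 10.3% in KO7, and the 151 chromosome 6 genes below 60 Mb had a median of -0.20, close to the -0.24 of the members. In KO7 those 151 genes had a median of -0.02. Tigd2 was at 19.9 and 22.8 CPM in KO8, within 3 CPM of WT, while Abcg2 at 58.6 Mb, a drug efflux transporter, was at 70.8 and 76.3 in KO8 against 95.2 and 103 in WT.

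Within the stretch the lower level had no internal gap in either line. Running medians over 15 genes lay below the median of other chromosomes in 333 of 333 windows in KO7 and in 333 of 333 in KO8. They ranged in KO7 from -0.65 at Smarcad1 to -0.04 at Trh at 92.2 Mb, and in KO8 from -0.69 at Gprc5a at 135 Mb to -0.06 at Gng12 at 66.9 Mb. In bins of 10 Mb the median was below 0 in 9 of 9 bins in both lines, from -0.65 (7 genes between 60 and 70 Mb) to -0.28 in KO7 and from -0.40 to -0.19 in KO8.

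**Figure D2:**
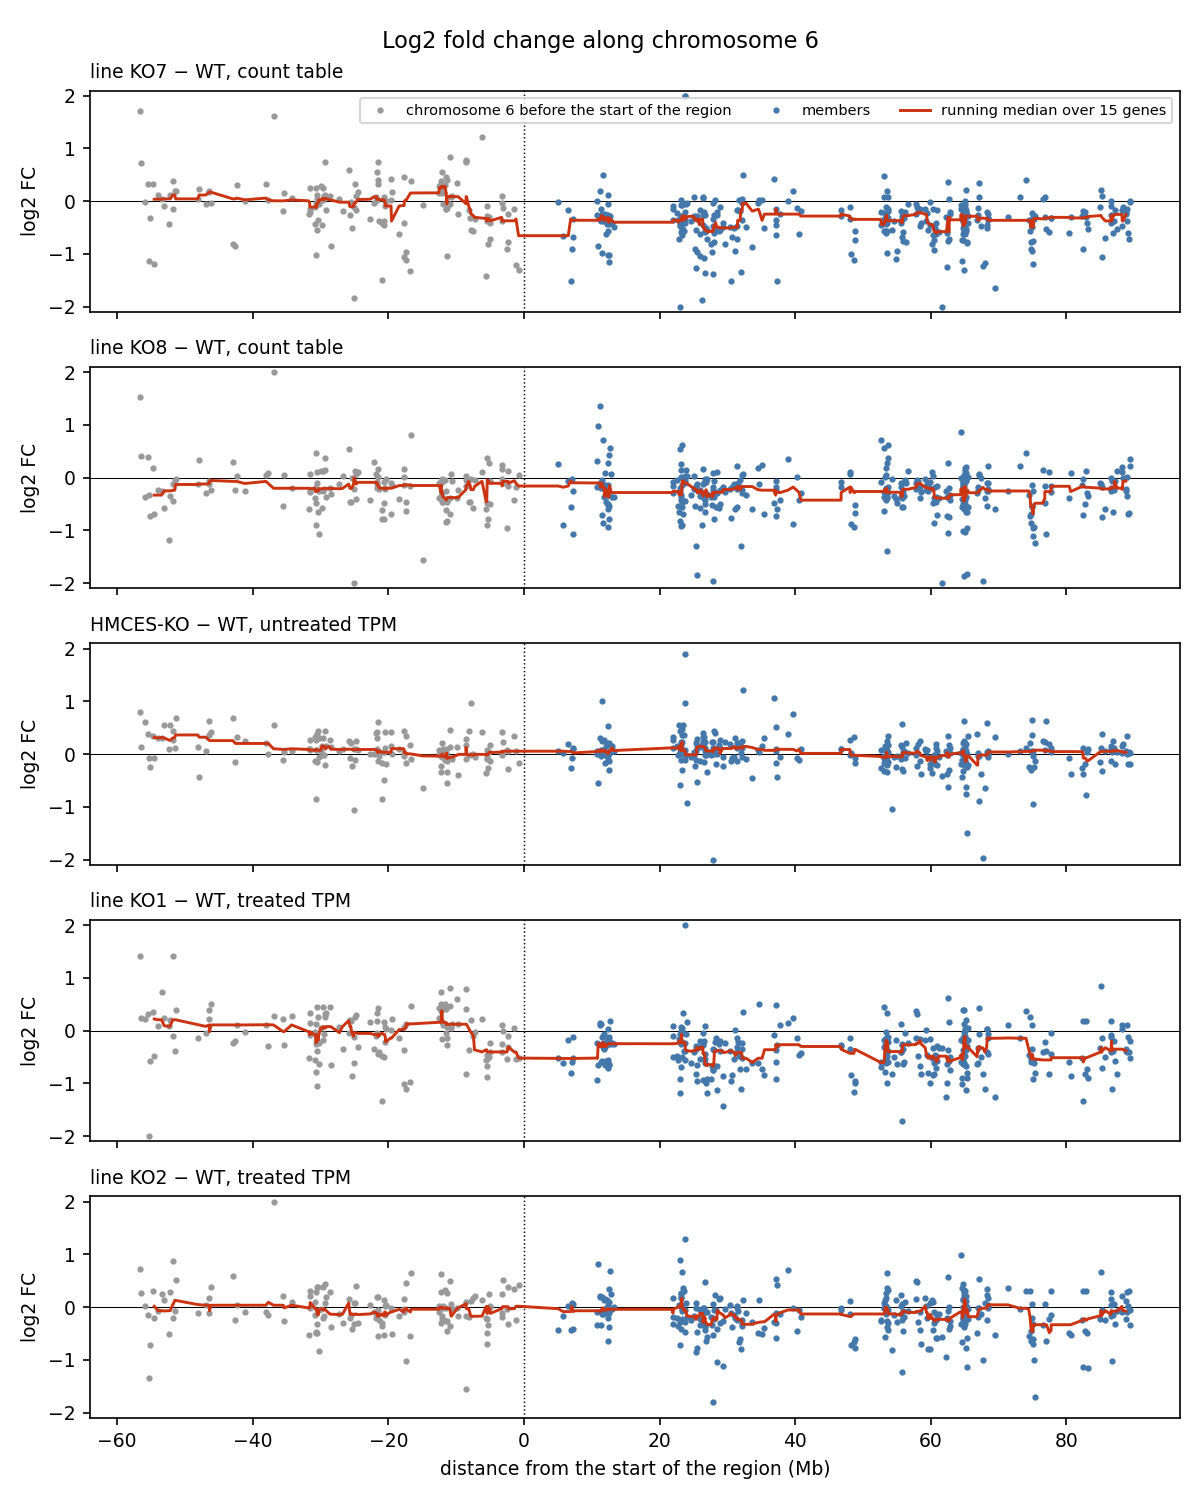
Log2 fold change against WT of each chromosome 6 gene with a mean count of at least 50 (points; values beyond 2 are drawn at 2) by distance in Mb from the start of the stretch, with the running median over 15 genes as a line, 1 panel per comparison. In KO7 and KO1 the line drops shortly before the stretch and stays below 0, in KO8 it is mostly below 0 on both sides of that point, and in the untreated TPM table it stays near 0 within the stretch.

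The untreated TPM table did not show the fall. Over the 340 members its HMCES-KO libraries had median differences of 0.03 and 0.04 from WT, where genes of other chromosomes had -0.05 and -0.06. In limma 23 members fell and 44 rose (6.76% and 12.9%), against 10.2% and 5.8% of all genes tested (16% in either direction). Without WT replicate 1 these counts were 12 and 15, and without WT replicate 2 they were 10 and 16. The members took 4.98% and 4.97% of TPM in WT and 5.30% and 5.32% in HMCES-KO. Running medians were below the median of other chromosomes in 42 of 333 windows. The count of members that rose was 96 when whole reads recovered from the table were tested in edgeR, and 4 when limma was run without a trend of the spread with level; the median was 0.10 in the first and 0.04 in the second. Without that trend the untreated calls given below for Nanog, Gdf3, Slc2a3, Cnbp, Pcbp1, Cdkn1b, Foxp1, Aebp2 and Mthfd2 missed the threshold (adjusted p = 0.079, 0.071, 0.15, 0.11, 0.071, 0.085, 0.061, 0.063 and 0.13). Hmces, at -2.20 in this table and -1.96 in KO8, was low here while the median of the members was not below WT.

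Set against the WT libraries of the untreated TPM table, the WT libraries of the count table differed by 0.06 in the members, taken relative to other chromosomes, while KO7 differed by -0.35 and KO8 by -0.17. The 2 tables were normalized separately, so these values describe levels across tables and carry no test.

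After 2 h of treatment line KO1 showed the fall in each table. Its members had medians of -0.33 with activin A, -0.38 with SB431542, -0.42 with BMP4 and -0.41 with LDN193189, while the other chromosomes had -0.06, -0.04, -0.06 and -0.09. In limma, with the 4 agents pooled, 177 of 325 members tested fell and 12 rose, against 20.3% and 12.4% of all genes tested (32.7% in either direction), with a median of -0.37 (77.2% of WT). For 158 of the 327 members in all 4 tables (48.3%), KO1 was below both WT libraries in all 4 treatments, which held for 19.3% of the genes of other chromosomes. The share of TPM in the members was 3.85% to 4.09% in KO1 and 4.53% to 4.79% in WT, without overlap.

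Line KO2 showed less of it. Its medians were -0.19, -0.16, -0.10 and -0.03 in the same order of treatments, and the other chromosomes had -0.04, -0.03, -0.07 and -0.04. In limma 82 of 325 members fell and 30 rose, against 16.6% and 12.2% of all genes tested (28.9%), and 17 rose without the KO2 library with BMP4. With LDN193189 the median of the members was 0.02 above that of other chromosomes. With activin A it was 0.15 below. The share of TPM in the members was 4.26% and 4.21% in KO2 with activin A and SB431542, below WT (4.73% to 4.79%). With BMP4 and LDN193189 it was 4.64% and 4.71%, above WT (4.53% to 4.6%). For 22.9% of the members KO2 was below both WT libraries in all 4 treatments, against 16.7% of the genes of other chromosomes. The treated libraries of a line number 1 per agent, so a difference between agents has no replicate check.

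The lines themselves differed in the members. In limma 59 of 325 members were higher in KO2 than in KO1 and 3 were lower, against 3.89% and 2.7% of all genes tested (6.58%), and the median difference was 0.24. The count of higher members was 34 without the KO1 library with BMP4 and 39 without the KO1 library with LDN193189. Both lines were compared with the same WT libraries.

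**Figure D3:**
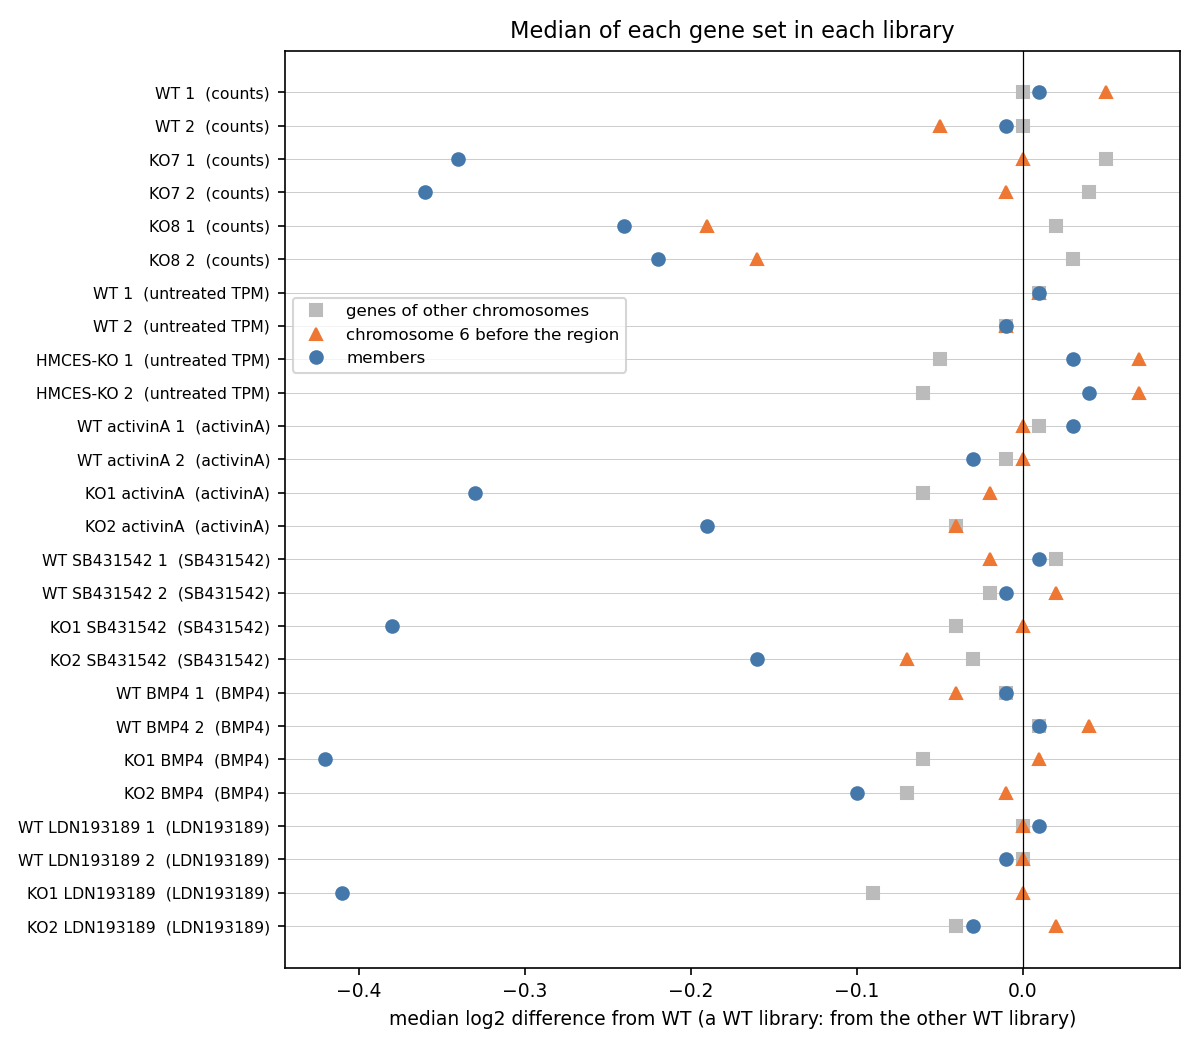
Median log2 difference from WT in each of the 26 libraries for the members (circles), the chromosome 6 genes before 60 Mb (triangles) and the genes of other chromosomes (squares); a WT library is set against the other WT library of its table. The members stand to the left of other chromosomes in the KO7, KO8 and KO1 libraries (-0.22 to -0.42), and not in the untreated TPM table. In KO2 (-0.03 to -0.19) they do so less, and not with LDN193189 (-0.03 against -0.04). In KO8 the chromosome 6 genes before 60 Mb lie near the members (-0.19 and -0.16 against -0.24 and -0.22).

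In the treated tables the border of KO1 lay close to that of KO7. Its best step fell between Tril at 53.8 Mb and Wipf3 at 54.4 Mb, with medians of 0.08 before and -0.38 after, and it fell between Snx10 and Skap2 when genes with a mean count of at least 500 were used. All 318 running windows over the members were below the median of other chromosomes, from -0.68 at Copg1 to -0.07 at Slc4a5. KO2 had a weak step, with 1.43% of the deviation removed, and 255 of 318 windows below. Single genes did not all follow this border in KO1. On the near side Snx10 rose by 0.80 ± 0.13 (adjusted p = 2.2e-04), while Hnrnpa2b1 fell by 0.81 ± 0.20 (adjusted p = 0.0048) and Cbx3 was at 0.42 ± 0.26 (adjusted p = 0.25). Of the 5 genes nearest below 60 Mb, Tigd2 fell by 0.53 ± 0.12 (adjusted p = 0.0032), and Pyurf (-0.10), Lancl2 (-0.31), Abcg2 (0.06) and Herc3 (-0.54) missed the threshold (adjusted p = 0.67, 0.19, 0.73 and 0.075).

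Members differed in whether their fall in one experiment matched their fall in the other. Over 325 members the log2 fold changes of KO7 and KO1 had a Pearson r of 0.51 (Spearman 0.39), those of KO7 and KO2 0.28 (0.17), those of KO8 and KO1 0.19 (0.19), and those of KO8 and KO2 0.39 (0.26). These are correlations across genes, which share libraries and are not replicates, and they do not show which line is which.

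The members of each functional list below were chosen with results of these data known, and their counts stand beside the shares of all genes tested. Of all members tested, 54.5% fell in KO1 (median -0.37) and 25.2% in KO2 (median -0.11). A list share above that of all genes thus includes the fall of the stretch. Whether a list differed from the other members was not tested. Among the DNA repair and replication genes, 10 of 12 fell and 0 rose in KO1 (median -0.51), against 20.3% and 12.4% of all genes. In KO2 3 fell and 0 rose, against 16.6% and 12.2%, and limma called 0 of 12 in the untreated TPM table, where 16% of all genes were called. Mbd4, a glycosylase for mismatched thymine and uracil, was at 76.8 and 64.0 CPM in WT, 47.6 and 47.7 in KO7 and 48.8 and 48.3 in KO8. Both lines lay below WT. It fell in KO1 by 0.63 ± 0.13 (adjusted p = 0.0012) and in KO2 by 0.44 ± 0.13 (adjusted p = 0.016). Mcm2, a subunit of the replicative helicase, fell by 0.38 ± 0.05 in KO1 and by 0.30 ± 0.05 in KO2 (adjusted p = 6.8e-05 and 7.7e-04). Xpc, the damage sensor of nucleotide excision repair, fell in KO1 by 0.31 ± 0.10 (adjusted p = 0.019) and was at 0.02 ± 0.10 in KO2 (adjusted p = 0.90). The KO1 call of Xpc was lost without the KO1 library with SB431542 (adjusted p = 0.095) or with LDN193189 (0.082), and the KO2 call of Mbd4 without the KO2 library with activin A (0.11). Smarcad1, a chromatin remodeller that opens DNA ends for resection, fell in both treated lines (-0.52 ± 0.10 and -0.44 ± 0.10, adjusted p = 9.7e-04 and 0.0044), though in the count table it was at 349.9 and 387.1 CPM in WT, 366.3 and 372.1 in KO7 and 451.4 and 436.0 in KO8.

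Of the 10 glycolysis and metabolism genes, 8 fell and 0 rose in KO1 (median -0.55), against 20.3% and 12.4% of all genes, and 7 fell and 0 rose in KO2 (median -0.23), against 16.6% and 12.2%. Without treatment, Gapdh fell and Mthfd2 and Ndufa9 rose. Tpi1, the triosephosphate isomerase, was at 350.7 and 263.5 CPM in WT, 194.1 and 180.5 in KO7 and 156.8 and 151.4 in KO8, without overlap. It fell by 0.55 ± 0.07 in KO1 and by 0.20 ± 0.07 in KO2 (adjusted p = 1.4e-05 and 0.031). Hk2, a hexokinase, fell by 0.55 ± 0.09 and 0.35 ± 0.09 (adjusted p = 1.5e-04 and 0.0061). Mthfd2 of mitochondrial folate metabolism rose by 0.23 ± 0.04 in the untreated TPM table (adjusted p = 0.021). It was at -0.22 ± 0.08 in KO1 and -0.23 ± 0.08 in KO2 (adjusted p = 0.042 and 0.038), calls that were lost without a trend (0.084 and 0.079), with factors taken without chromosome 6 (0.12 and 0.062) and when many of the single libraries were left out (up to 0.18 and 0.22). Bcat1, a branched-chain aminotransferase, fell by 0.32 ± 0.08 in KO1 (adjusted p = 0.0038) and by 0.22 ± 0.08 in KO2 (adjusted p = 0.037). The KO2 calls of Tpi1 and Bcat1 were lost with factors taken without chromosome 6 (adjusted p = 0.066 and 0.057) and without some single libraries, the furthest without the KO2 library with LDN193189 for Tpi1 (0.12) and with BMP4 for Bcat1 (0.15).

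Mat2a, which makes the methyl donor S-adenosylmethionine, changed side between the experiments. In the count table it was at 479.9 and 579.2 CPM in WT, 600.6 and 564.7 in KO7 and 630.3 and 653.4 in KO8. KO8 was above WT and KO7 overlapped it. In the treated tables it was at 188.3 to 379.8 TPM in WT, 123.4 to 216.0 in KO1 and 123.6 to 230.9 in KO2, below WT within every treatment. It fell by 0.71 ± 0.07 in KO1 and by 0.64 ± 0.07 in KO2 (adjusted p = 1.5e-06 and 7.9e-06).

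Of the 15 translation and secretion genes, 10 fell and 0 rose in KO1 (median -0.37), against 20.3% and 12.4% of all genes. The members as a whole had the same median in KO1. In KO2 7 fell and 1 rose (median -0.09), against 16.6% and 12.2%, and 0 fell and 4 rose in the untreated TPM table, against 10.2% and 5.8%. Sec61a1, the channel of the endoplasmic reticulum translocon, fell by 0.68 ± 0.07 in KO1 and by 0.41 ± 0.07 in KO2 (adjusted p = 4.3e-06 and 5.8e-04). Rpn1, a subunit of the oligosaccharyltransferase, was at 508.9 and 511.7 CPM in WT, 333.7 and 340.3 in KO7 and 385.9 and 408.7 in KO8. It fell by 0.37 ± 0.09 in KO1 (adjusted p = 0.0044) and was at -0.05 ± 0.09 in KO2 (adjusted p = 0.73). Emg1, a ribosome assembly methyltransferase, fell in both lines (-0.63 ± 0.08 and -0.27 ± 0.08, adjusted p = 2.8e-05 and 0.019). Cnbp, a nucleic acid binding protein, fell by 0.75 ± 0.09 and 0.52 ± 0.09 (adjusted p = 1.1e-05 and 4.0e-04) and rose by 0.22 ± 0.03 in the untreated TPM table (adjusted p = 0.0082). In the count table it was level with WT, at 1242 and 1335 CPM in WT against 1292 and 1252 in KO7 and 1337 and 1404 in KO8. Pcbp1, an RNA binding protein from a gene without introns, fell by 0.20 ± 0.05 in KO1 (adjusted p = 0.010) and rose by 0.32 ± 0.03 in the untreated TPM table (adjusted p = 0.0028). With factors taken without chromosome 6 the KO1 call of Pcbp1 was lost (adjusted p = 0.072), and the KO2 call of Emg1 was lost without the KO2 library with LDN193189 (0.1) or activin A (0.084).

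Of the 10 cell cycle and growth signalling genes, 3 fell and 1 rose in KO1, against 20.3% and 12.4% of all genes. In KO2 2 fell and 2 rose, against 16.6% and 12.2%. Both lie near the shares of all genes, and the 3 of 10 that fell in KO1 lie below the 54.5% of members. Without treatment 1 fell and 3 rose, against 10.2% and 5.8%. Cdkn1b, which encodes the cyclin-dependent kinase inhibitor p27, fell in KO1 by 0.35 ± 0.08 (adjusted p = 0.0043) and rose in the untreated TPM table by 0.36 ± 0.06 (adjusted p = 0.013). Ncapd2, a condensin subunit, was at 414.4 and 371.6 CPM in WT, 279.4 and 268.0 in KO7 and 255.5 and 249.5 in KO8. Its log2 difference was 0.19 ± 0.07 in KO1 and 0.20 ± 0.07 in KO2 (adjusted p = 0.045 and 0.042), calls that were lost without a trend (0.063 and 0.06) and when many of the single libraries were left out (up to 0.21 and 0.2). Foxm1, a transcription factor of the G2 and M phases, was at 181.1 and 177.6 CPM in WT, 142.6 and 146.4 in KO7 and 147.4 and 162.0 in KO8, and missed the threshold in KO1 at -0.14 ± 0.06 (adjusted p = 0.070).

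Of the 16 transcription factors and chromatin genes, 5 fell and 0 rose in KO1 (median -0.16), against 20.3% and 12.4% of all genes. In KO2 5 fell and 3 rose, against 16.6% and 12.2%, and 2 fell and 3 rose in the untreated TPM table, against 10.2% and 5.8%. In KO7 their median was -0.18 and in KO8 0.03, so this list was less low than the members as a whole in the count table, a difference that was not tested. Aebp2, a cofactor of Polycomb repressive complex 2, fell by 0.87 ± 0.13 in KO1, by 0.53 ± 0.13 in KO2 and by 0.37 ± 0.05 in the untreated TPM table (adjusted p = 7.9e-05, 0.0053 and 0.0090). Kdm5a, a histone H3K4 demethylase, fell by 0.84 ± 0.14 in KO1 and by 0.43 ± 0.14 in KO2 (adjusted p = 2.0e-04 and 0.025). The KO2 call of Kdm5a was lost without the KO2 library with activin A, SB431542 or BMP4 (adjusted p = 0.099, 0.065 and 0.12). Chd4, the ATPase of the NuRD complex, was at 0.19 ± 0.06 in KO2 and -0.15 ± 0.04 in the untreated TPM table (adjusted p = 0.027 and 0.040), calls that were lost without a trend (0.058 and 0.2) and without the KO2 library with BMP4 (0.14) or WT replicate 2 (0.21). Foxp1, a forkhead factor, rose in KO2 by 0.71 ± 0.15 and in the untreated TPM table by 0.38 ± 0.05 (adjusted p = 0.0023 and 0.0086), while KO1 was at 0.15 ± 0.15 (adjusted p = 0.49). Setd5 was at 564.7 and 524.8 CPM in WT, 425.9 and 440.2 in KO7 and 469.6 and 432.0 in KO8.

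The 5 members of the Nanog cluster did not move together. Nanog itself, a core factor of pluripotency, was at 977.2 and 893.1 CPM in WT, 991.4 and 938.7 in KO7 and 812.7 and 834.7 in KO8. KO7 overlapped WT and KO8 lay below it. Nanog fell in the untreated TPM table by 0.29 ± 0.03 (adjusted p = 0.0051), rose in KO1 by 0.16 ± 0.05 (adjusted p = 0.021), and was at 0.00 ± 0.05 in KO2 (adjusted p = 0.97). The KO1 call was lost without the KO1 library with BMP4 or LDN193189 (adjusted p = 0.11 and 0.087).

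Its neighbours Slc2a3 and Phc1 followed the fall. Slc2a3, a glucose transporter and one of the members with the highest counts, was at 2954 and 2342 CPM in WT, 1623 and 1619 in KO7 and 1594 and 1559 in KO8. It fell by 0.58 ± 0.09 in KO1 and by 0.41 ± 0.09 in KO2, and rose by 0.18 ± 0.03 in the untreated TPM table (adjusted p = 1.7e-04, 0.0031 and 0.014). Phc1, a Polycomb protein, fell by 0.64 ± 0.05 and 0.23 ± 0.05 in the treated lines (adjusted p = 1.6e-07 and 0.0024), and KO2 was above KO1 by 0.41 ± 0.06 (adjusted p = 3.9e-04). Apobec1, a cytidine deaminase, fell in the untreated TPM table by 0.62 ± 0.08 (adjusted p = 0.0077) and missed the threshold in KO1 at -0.36 ± 0.14 (adjusted p = 0.052). Dppa3, the remaining gene of the list, had a mean count of 15.3 and is not a member.

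Gdf3, a Nodal-related ligand within the same cluster, was higher in every comparison. It was at 206.8 and 239.0 CPM in WT, 292.1 and 287.4 in KO7 and 260.6 and 279.9 in KO8. Without treatment it was at 332.7 and 324.5 TPM in WT and 422.0 and 410.5 in HMCES-KO. The treated WT libraries ran from 758.1 to 878.4 TPM, those of KO1 from 1170 to 1295 and those of KO2 from 1080 to 1293. No knockout library overlapped WT in any of these tables. Gdf3 rose by 0.34 in the untreated TPM table, by 0.62 in KO1 and by 0.57 in KO2 (limma, adjusted p = 0.0053, 1.4e-06 and 5.4e-06).

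In all, 21 of the 340 members were at or above 0 in both lines of the count table, 260 were below 0 in both and 59 were at or above 0 in 1 line. These 21 were chosen by their values. They were called higher in both lines in 4 cases: Kdm3a, Etv6, Gdf3 and Gt(ROSA)26Sor. The 21 lay at most 4 to a 10 Mb bin, with a median length of 3361 bases against 3029 in the other members. In the treated tables, which the choice did not use, 18 of the 21 were tested. In KO1, 3 rose and 6 fell, against 12.4% and 20.3% of all genes tested. Their median in KO1 was -0.14, against -0.38 in the other 307 members. In KO2, 3 rose and 3 fell, against 12.2% and 16.6% of all genes tested. Their median in KO2 was -0.04 against -0.11. Without treatment, 5 of the 21 rose and 2 fell, against 5.8% and 10.2% of all genes tested. Their untreated median was 0.05 against 0.04.

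Kdm3a, an H3K9 demethylase, was at 173.3 and 203.1 CPM in WT, 268.3 and 266.8 in KO7 and 314.5 and 303.2 in KO8. Both lines lay above WT. It was called in none of the other comparisons: -0.23 ± 0.10 in KO1, -0.10 ± 0.10 in KO2 and 0.09 ± 0.04 in the untreated TPM table (adjusted p = 0.090, 0.50 and 0.17). Etv6, an ETS family repressor, was at 49.0 and 56.4 CPM in WT, 72.2 and 68.4 in KO7 and 73.1 and 73.9 in KO8, and was at 0.37 ± 0.16 in KO1 (adjusted p = 0.098). The Rosa26 transcript was at 11.6 and 9.36 CPM in WT, 14.0 and 15.7 in KO7 and 14.6 and 16.8 in KO8. Its KO7 call was lost in DESeq2 (adjusted p = 0.077). In the untreated TPM table it went the other way, called lower in limma at -0.33. That call was lost in limma without a trend (adjusted p = 0.094) and in edgeR on recovered reads (0.11). Fam136a, Smim10l1, Tatdn2, Prrt3 and Smyd1 were between 0.08 and 0.20 in KO7 and between 0.17 and 1.36 in KO8. Of these, Fam136a fell in KO1 (-0.26 ± 0.08, adjusted p = 0.022) and Prrt3 rose in KO2 (0.37 ± 0.12, adjusted p = 0.027). The calls were lost without the KO1 library with BMP4, LDN193189 or SB431542 for Fam136a (adjusted p = 0.13, 0.064 and 0.11) and without any one KO2 library for Prrt3 (0.057 to 0.086).

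Vax2, a homeobox gene of the ventral eye, went furthest against the joint fall. It was at 12.5 and 15.0 CPM in WT, 63.4 and 61.9 in KO7 and 14.1 and 13.9 in KO8, so that KO7 stood apart and KO8 lay with WT. Without treatment it was at 7.62 and 7.55 TPM in WT and 30.2 and 32.2 in HMCES-KO. With the 4 agents it was at 186.3, 169.8, 224.5 and 266.3 TPM in KO1 and at 36.1, 43.9, 56.5 and 50.4 in KO2, with WT between 10.1 and 28.4. The order WT, KO2, KO1 held in every treatment without overlap. Vax2 rose by 1.91 ± 0.10 in the untreated TPM table, by 3.45 ± 0.25 in KO1 and by 1.30 ± 0.25 in KO2 (adjusted p = 8.9e-04, 8.3e-08 and 0.0011). Vax2os overlaps Vax2 on the other strand and was at 8.81 and 10.6 CPM in WT, 38.8 and 39.4 in KO7 and 9.46 and 10.0 in KO8. The labels do not say whether counting used strand, so reads of the pair cannot be told apart where they overlap.

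Trh, the precursor of thyrotropin-releasing hormone, was at 352.8 and 432.9 CPM in WT, 557.9 and 553.0 in KO7 and 407.7 and 422.1 in KO8. It rose from 724.9 and 715.4 TPM to 1641 and 1699 in the untreated TPM table, by 1.21 ± 0.03 (adjusted p = 7.6e-05), and in KO1 by 0.36 ± 0.08 (adjusted p = 0.0031). KO2 was at 0.14 ± 0.08 (adjusted p = 0.22).

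The 10 members furthest below WT in both lines of the count table were A2m, Hmces, Fgd5, Lag3, Rab11fip5, Prmt8, Il17rc, Gprc5a, Fbxo41 and Bhlhe40. Fgd5, a guanine nucleotide exchange factor, was at 43.1 and 31.4 CPM in WT, 13.4 and 16.5 in KO7 and 14.9 and 15.5 in KO8. It fell by 1.10 ± 0.15 in KO1 and by 0.79 ± 0.15 in KO2 (adjusted p = 4.5e-05 and 0.0010) and was at 0.02 ± 0.12 in the untreated TPM table (adjusted p = 0.92). Rab11fip5, an effector of recycling endosomes, fell by 0.83 ± 0.14 and 0.86 ± 0.14 in the treated lines (adjusted p = 2.3e-04 and 2.6e-04) and was at -0.11 ± 0.15 in the untreated TPM table (adjusted p = 0.63). Both genes thus were low in KO7, KO8, KO1 and KO2 and near WT in the untreated TPM table.

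Prmt8, an arginine methyltransferase, was low in all 5 comparisons. It was at 31.5 and 20.1 CPM in WT, 10.9 and 11.5 in KO7 and 6.73 and 6.70 in KO8, and it fell from 16.8 and 14.8 TPM to 2.58 and 4.11 in the untreated TPM table, by 1.97 ± 0.21 (adjusted p = 0.0051). In the treated tables, where no library exceeded 6.64 TPM, it fell by 0.83 ± 0.25 in KO1 and by 0.99 ± 0.25 in KO2 (adjusted p = 0.020 and 0.0079). Gprc5a, an orphan receptor induced by retinoic acid, fell by 0.95 ± 0.10 in the untreated TPM table and by 0.91 ± 0.26 in KO1 (adjusted p = 0.0051 and 0.012). The KO1 calls of Prmt8 and Gprc5a were lost without the KO1 library with SB431542 (adjusted p = 0.1 and 0.073). The level of Gprc5a in the treated tables depended on the agent: with activin A it was at 187.1 and 186.5 TPM in WT, 56.0 in KO1 and 76.5 in KO2, while with BMP4 it was at 70.0 and 69.9 in WT, 81.3 in KO1 and 91.8 in KO2. Bhlhe40, a repressor of the clock, fell by 1.17 ± 0.17 and 0.66 ± 0.17 in the treated lines (adjusted p = 8.0e-05 and 0.0083).

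A2m, a protease inhibitor of plasma, was at 46.3 and 20.4 CPM in WT, 8.66 and 6.89 in KO7 and 4.52 and 3.88 in KO8, and its WT libraries differed from each other by over 20 CPM. It was at -0.33 ± 0.29 in KO1 and -0.57 ± 0.29 in KO2 (adjusted p = 0.41 and 0.15). Lag3 and Il17rc, at 8.65 CPM or less and 9.37 or less in the WT libraries, were called in none of the TPM comparisons. Fbxo41 was not tested in the treated tables because of its low level.

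Markers of endoderm, cells that can arise in serum cultures of embryonic stem cells, were lower too, but not in step with the members. Their median log2 fold change was -1.31 in KO7 and -2.27 in KO8, where the members had -0.36 and -0.24. In the untreated TPM table it was -0.32, where the members had 0.04. Of 11 markers, 10 were called lower in KO7 and 11 in KO8. In KO1 7 fell and in KO2 4, and 3 of 9 tested fell in the untreated TPM table. Of all genes tested, 19.2%, 19.7%, 20.3%, 16.6% and 10.2% were called lower in KO7, KO8, KO1, KO2 and the untreated TPM table. In the same order 19%, 19.3%, 12.4%, 12.2% and 5.8% were called higher. Their summed level was 626 to 658 CPM in WT, 321 to 328 in KO7 and 290 to 292 in KO8, and none was at 0 in all libraries of a line. The sums were 293 to 312 TPM in untreated WT and 221 to 223 in untreated HMCES-KO. Under treatment they were 82.6 to 135 in WT, 46.6 to 75 in KO1 and 54.7 to 88.7 in KO2. Of 6 fibroblast (feeder) markers, 3 were called lower in KO7 and in KO8 and 1 higher in KO7, 2 fell and 1 rose in the untreated TPM table, 1 fell and 1 rose in KO1, and 1 fell and 2 rose in KO2. Of 13 pluripotency genes of other chromosomes, 3 were called lower and 5 higher in KO7. In KO8 3 were lower and 4 higher, with Klf4, Tbx3 and Dppa5a lower in both. The 3 of 13 called lower lie near the shares of all genes called lower in KO7 and KO8. Without treatment 6 fell (Esrrb, Klf4, Tbx3, Tfcp2l1, Utf1 and Lin28a) and 1 rose. In KO1 4 fell and 4 rose, and in KO2 4 fell and 3 rose. The part of other cell types in the values of single members was not tested.

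The 5 members whose level over the 6 libraries of the count table was most like the median over members were Etfrf1, Mrpl53, Atp6v1e1, Copg1 and Magi1, with a Pearson r of 0.998, 0.998, 0.995, 0.994 and 0.993. Copg1, a coat protein of Golgi vesicles whose gene ends just before Hmces starts, was at 193.1 and 192.4 CPM in WT, 157.8 and 148.9 in KO7 and 164.2 and 166.4 in KO8. It fell by 0.35 ± 0.08 in KO1 (adjusted p = 0.0039), was at 0.07 ± 0.08 in KO2 (adjusted p = 0.59), and the lines differed by 0.41 ± 0.09 (adjusted p = 0.014; 0.061 without the KO1 library with LDN193189). The gene next to Hmces was thus near the WT level in KO2, the treated line with the lower Hmces. Atp6v1e1, a subunit of the vacuolar proton pump that lies over 30 Mb further on, was at 103.6 and 105.6 CPM in WT, 69.5 and 67.6 in KO7 and 80.2 and 82.01 in KO8. It fell by 0.48 ± 0.08 in KO1 (adjusted p = 1.7e-04) and was at -0.14 ± 0.08 in KO2 (adjusted p = 0.19).

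The other genes of this group split in the treated tables. Etfrf1, an assembly factor of mitochondrial electron transfer, fell by 0.72 ± 0.13 in KO1 (adjusted p = 6.7e-04) and Magi1, a scaffold of cell junctions, by 0.60 ± 0.13 (adjusted p = 0.0019). Mrpl53, a protein of the mitochondrial ribosome, was at -0.05 ± 0.08 in KO1 (adjusted p = 0.63) and rose by 0.26 ± 0.08 in KO2 (adjusted p = 0.021), a call lost without the KO2 library with activin A or BMP4 (0.081 and 0.084).

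**Figure D4:**
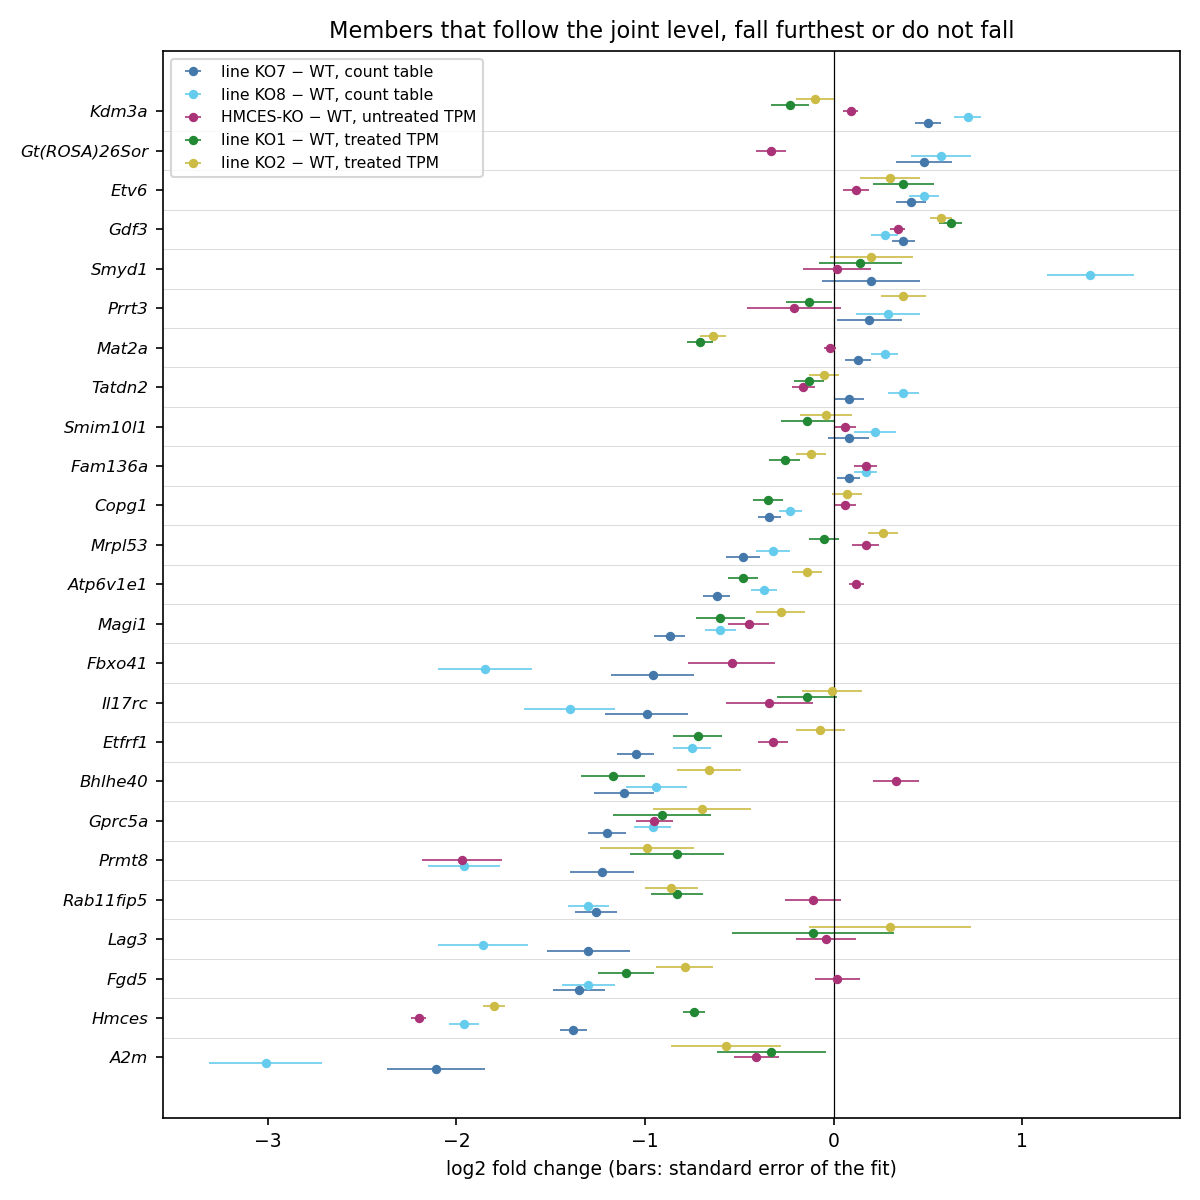
Log2 fold change against WT (points, with the standard error of the fit as bars) of the 10 members furthest below WT in the count table, the 10 furthest above it and the 5 most like the joint level, in 5 comparisons; Hmces is among the first 10. Gdf3 is above 0 in all 5 comparisons, Hmces and Prmt8 are among those below 0 in all 5, and Mat2a is above 0 in the count table and below it in KO1 and KO2.

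A few members were called in opposite directions in the lines. Between KO7 and KO8 these were Arpc4, Tcf7l1, Srgap3, Capg, Tafa4 and Foxi3, and between KO1 and KO2 they were Kcmf1 and Foxi3. In DESeq2 the KO8 calls of Arpc4 and Capg missed the threshold (adjusted p = 0.068 and 0.067). So did the KO7 call of Srgap3 (0.075) and the calls of Tafa4 in KO7 (0.095) and KO8 (0.088). Opposite calls were not counted over all genes, so these members are a description only. Foxi3, a forkhead factor of placodes, was at 5.25 and 7.41 CPM in WT, 3.72 and 3.19 in KO7 and 12.6 and 12.3 in KO8. It fell in KO1 by 0.65 ± 0.17 and rose in KO2 by 0.82 ± 0.17 (adjusted p = 0.0078 and 0.0020). Tcf7l1, the repressor of Wnt targets, was at 107.2 and 110.5 CPM in WT, 93.7 and 85.6 in KO7 and 161.9 and 160.8 in KO8. It rose in KO2 by 0.69 ± 0.10 (adjusted p = 8.2e-05) and was at 0.18 ± 0.10 in KO1 (adjusted p = 0.17). Kcmf1, a ubiquitin ligase, fell in KO1 by 0.25 ± 0.06 and rose in KO2 by 0.25 ± 0.06 (adjusted p = 0.0048 and 0.0069). Arpc4, a subunit of the Arp2/3 actin nucleator, fell in KO1 by 0.51 ± 0.06 (adjusted p = 5.9e-06) and was at -0.13 ± 0.06 in KO2 (adjusted p = 0.11).

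At the proximal end of the stretch Gadd45a, a stress-induced gene of growth arrest, separated the lines most plainly. It was at 86.1 and 88.3 CPM in WT, 46.3 and 47.7 in KO7 and 86.6 and 84.5 in KO8. With activin A it was at 196.1 and 186.0 TPM in WT, 136.3 in KO1 and 191.2 in KO2, and with LDN193189 at 158.8 and 166.5 in WT, 90.9 in KO1 and 174.4 in KO2. KO1 lay below WT in each treatment, and KO2 within or above it. Gadd45a fell in KO1 by 0.59 ± 0.07 (adjusted p = 6.5e-06), was at 0.07 ± 0.07 in KO2 (adjusted p = 0.47), and the lines differed by 0.66 ± 0.08 (adjusted p = 8.5e-05). Gng12 nearby, a G protein gamma subunit, fell in KO1 by 0.81 ± 0.17 (adjusted p = 0.0019) and was at -0.44 ± 0.17 in KO2 (adjusted p = 0.066).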

How the data were processed

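Libraries were made from total RNA with the Illumina TruSeq RNA kit, per the labels' protocols. Bowtie2 2.3.3, SAMtools 1.9, featureCounts 2.0.1, FastQC 0.11.5 and DESeq2 are named with mm10 in the submitters' processing notes. The deposited count table holds raw counts per gene; the 5 deposited TPM tables hold TPM per gene. All values of the untreated TPM table are whole multiples of 1 read (tolerance 0.01 reads). The 4 treated tables were cut to their 12928 shared genes and rescaled to a common sum.

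Members and gene lists were chosen with earlier results of these data known. Counts were tested with edgeR 4.0.16 (TMM, quasi-likelihood, 6 libraries). For TPM, limma 3.58.1 with a mean trend was run on log2(TPM + 1), which understates changes of low genes; the treated fit had treatment and line as terms and pooled the 4 agents. Low genes were removed first, by filterByExpr for counts and for TPM by a level of 1 or more in 2 or more libraries. P-values were adjusted by Benjamini-Hochberg over all genes tested and called under 0.05. Named genes were Hmces, up to 5 members per list by mean count, the 10 furthest below WT and the 10 furthest above it in both lines, the 10 with the most counts per kb, genes about 60 Mb, the steps and the count limit, opposite calls, and the 5 most like the median of members. Steps were fitted by least absolute deviation with at least 15 genes on each side. Simulated data were run through the fits of KO7, of untreated HMCES-KO in TPM and of KO1 against WT only. The outcome is not given here. R 4.3.3 was used. Results on a few named genes are not reported here.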

Additional observations from a re-analysis of the deposited data

Results flagged for a closer look

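The treated lines differed in the members by a test of the difference itself (limma, KO2 minus KO1): 59 members were higher in KO2 and 3 were lower. Among the named members Hmces (-1.06) and Vax2 (-2.15) were lower in KO2 on the log2 scale. Higher in KO2 were Foxi3 (1.47), Gadd45a (0.66), Etfrf1 (0.65), Polr1a (0.63), Tcf7l1 (0.51), Prrt3 (0.50) and Kcmf1 (0.50). Ptcd3 (0.46), Phc1 (0.41), Copg1 (0.41), Arpc4 (0.39), Tpi1 (0.35), Emg1 (0.35), Atp6v1e1 (0.35), Usp39 (0.34), Phb2 (0.33) and Mrpl53 (0.31) were also higher. Each line has 4 libraries, 1 per agent. Dixon's outlier test on those 4 values flagged no single library in the median or share of the members or in Hmces. With 4 values that test has little power, and it cannot see a split into pairs. In KO2 the share of the members was 4.26% and 4.21% with activin A and SB431542. It was 4.64% and 4.71% with BMP4 and LDN193189. The differences of Mrpl53, Prrt3, Emg1 and Atp6v1e1 were lost in limma without a trend (adjusted p = 0.13, 0.056, 0.097 and 0.075). So were those of Polr1a, Phb2 and Usp39 (0.064, 0.056 and 0.055).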

How the results depend on the processing

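Of the alternatives run, those to scaling, filter and model kept the counts of members called lower in KO7, KO8, KO1 and KO2 within 1.5 times. Among members with a mean count of at least 500, which are fewer, 139 were lower in KO7 and 107 in KO8, and 18 were lower and 62 higher in KO8 than in KO7. DESeq2 called 65 members higher in KO8 than in KO7, against 103 in edgeR. For untreated TPM, 26 members rose without a filter on low TPM, 8 fell and 4 rose in limma without a trend, and 96 rose on recovered reads in edgeR, an alternative chosen after seeing the data. With genes of at least 500 counts the weak steps moved to 84.6 Mb in KO8, 82.6 Mb in KO2 and 97.2 Mb in the untreated TPM table.

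Leaving out 1 library at a time, members called lower ran from 179 to 230 in KO7, 122 to 183 in KO8, 154 to 181 in KO1 and 59 to 86 in KO2. In KO8 against KO7, 14 to 37 were lower and 46 to 128 higher, the fewest without KO7 replicate 1. In KO2 against KO1, 2 to 3 were lower and 34 to 62 higher. For untreated TPM, from 10 to 26 fell and 15 to 45 rose, the fewest without a WT library. Rps4l in KO8 ran from -0.14 without WT replicate 1 to 0.15 without WT replicate 2, against -0.01 with all libraries.

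The numbers in the labels or column names do not tie libraries together: same-numbered libraries of the count table deviated with correlations of 0.00, -0.01 and -0.01, and those of the untreated TPM table with 0.14. With the replicate number as a block, 234 members were lower in KO7, 176 in KO8 and 20 in the untreated TPM table, where 38 rose.

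With 2 libraries a group, small shifts of single members are beyond these data, and the treated tables have 1 library per line and agent. Factors without chromosome 6 moved the median over members from -0.37 to -0.32 in KO1 and from 0.04 to 0.10 in the untreated TPM table.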
